A study of Homo sapiens with 9 samples.

Results

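Interferon-stimulated genes were followed across 9 Affymetrix expression arrays of PANC-1 cells, a human pancreatic carcinoma line. The genes came from a fixed list of 43 symbols, and every probe set that the platform annotation ties to 1 of these symbols was used. Of the 43 genes, 42 had a probe set and 30 had a signal high enough to be tested, against 12678 genes tested of 19775 on the array. STAT2 was not analysed here. The list was drawn up with earlier results of these data known. Its question was which families fall (IFIT and OAS were named) and which rise (IFITM was named). The values below are therefore no independent test of these directions. The arrays gave another answer for IFITM, where the IFITM1 probe set rose while those of IFITM2 and IFITM3 fell. Possible shared probes make that split uncertain. The answer for OAS was partial, since OASL and OAS3 fell and OAS1 and OAS2 gave signals too low to test.

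The study compared total RNA from cells given BRD7552, a small molecule, at 5 µM for 6 h or for 72 h with cells given the solvent DMSO, with 3 arrays in each of the 3 groups. The dose was chosen in the study as the lowest that induced the transcription factor PDX1 maximally. No genetic change, no other agent and no interferon was named for any group. The exposure time of the DMSO cells is not given. Nothing in the labels ties the replicates to separate cultures, and the p-values therefore speak only of the spread among these 9 samples, which may be technical. The same 3 DMSO arrays served both exposure comparisons. Values are linear probe set signals in arbitrary units, listed in the order of replicates 1, 2 and 3, and changes are on the log2 scale.

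Type I and type III interferons bind cell surface receptors whose Janus kinases activate transcription factors. A complex that contains STAT2 and IRF9 binds interferon-stimulated response elements (ISRE) in the promoters of target genes, while interferon gamma acts mainly through gamma-activated sequences (GAS). The target genes encode proteins that sense foreign RNA, block entry, replication or release of viruses, attach the ubiquitin-like protein ISG15 to other proteins, or feed back on the pathway. Many carcinoma lines keep a low level of these transcripts in the absence of added interferon.

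Of the duct epithelium and PANC-1 markers, 7 of 7 (KRT7, KRT8, KRT18, KRT19, EPCAM, SOX9 and MUC1) were above the level filter, against 1 of 6 leukocyte, 1 of 5 endothelial and 2 of 6 fibroblast markers. The leukocyte markers PTPRC, CD3E, MS4A1, CD14 and LYZ were below it, and ITGAM, with 13.0 to 26.5 on single arrays, was above it. The fibroblast marker COL1A1 gave 443 to 658, brighter than the duct markers KRT7, MUC1 and EPCAM on every array. The summed signal of the fibroblast markers was 644 to 726 on the DMSO arrays, 601 to 681 at 6 h and 529 to 646 at 72 h. The summed signal of the leukocyte markers was 72.1 to 75.1 on the DMSO arrays, 61.0 to 72.5 at 6 h and 60.4 to 67.8 at 72 h, and that of the duct markers was 34531 to 35426, 34883 to 35036 and 27813 to 29654. That sum is carried by the brightest keratins: at 72 h KRT7 fell by 1.07 and KRT8, KRT18, KRT19 and EPCAM also fell, MUC1 rose by 0.36, and SOX9 was not called. The median signal per array was 16.2 to 18.8. The upper quartile was 97.5 and 99.7 on replicates 2 and 3 at 72 h and 112 to 119 on the other arrays. The ratio of 3' to 5' control probe sets for ACTB was 2.07 to 2.21 at 72 h and 1.74 to 2.05 on the other arrays, that for GAPDH was 1.34 to 1.39 at 72 h and 1.27 to 1.35 on the others, and the part of these differences in the results was not tested.

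The promoter windows of RefSeq (GRCh38.p14), running from 250 bases before to 50 bases after each transcript start, were searched on both strands for the ISRE core (GAAA, then any pair of bases, then GAAA). Of the 36 members with a window, 24 (66.7%) held it, against 4.38% of 27305 genes. The core was present in 8 of 9 members that fell at 72 h, in both members that rose and had a window (IFITM1 and ISG15), in 8 of 13 members tested and not called, and in 6 of 11 members with low signals. The GAS core TTCNNNGAA was present in 10 of 36 members (27.8%) against 9.38% of all genes, and in 1 of 9 that fell. These matches describe letters in a window and show no binding. IFIT2, IFITM2, OAS2, OASL, MX2, USP18 and IRF7 had no window. The 130 bases just before the start are printed 5' to 3' on the strand of the gene, with ISRE cores on either strand in capitals, because these members carry the contrast between genes that fell and genes that rose. The first 4 are IFIT3 (chr10:89327867-89327996, plus strand), IFIT1 (chr10:89392493-89392622, plus strand) and HERC5 (chr4:88456989-88457118, plus strand), which fell at 72 h, and IFIT5 (chr10:89414438-89414567, plus strand), whose brighter probe set was not called.
IFIT3: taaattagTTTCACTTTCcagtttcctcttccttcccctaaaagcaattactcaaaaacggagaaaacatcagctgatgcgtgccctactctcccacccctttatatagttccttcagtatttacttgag
IFIT1: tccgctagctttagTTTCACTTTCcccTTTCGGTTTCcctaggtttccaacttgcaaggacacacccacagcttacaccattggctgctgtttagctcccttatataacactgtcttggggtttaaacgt
HERC5: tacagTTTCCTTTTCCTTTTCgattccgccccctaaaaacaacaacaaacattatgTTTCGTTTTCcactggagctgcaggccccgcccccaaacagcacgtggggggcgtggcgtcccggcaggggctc
IFIT5: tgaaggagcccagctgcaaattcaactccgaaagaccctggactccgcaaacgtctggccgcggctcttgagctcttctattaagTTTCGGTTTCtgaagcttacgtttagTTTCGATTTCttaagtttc
The next set is IFITM1 (chr11:313910-314039, plus strand) and ISG15 (chr1:1013367-1013496, plus strand), which rose, and IFITM3 (chr11:320861-320990, minus strand), which fell.
IFITM1: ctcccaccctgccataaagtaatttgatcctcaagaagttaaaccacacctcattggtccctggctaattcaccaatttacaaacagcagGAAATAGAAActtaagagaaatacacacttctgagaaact
ISG15: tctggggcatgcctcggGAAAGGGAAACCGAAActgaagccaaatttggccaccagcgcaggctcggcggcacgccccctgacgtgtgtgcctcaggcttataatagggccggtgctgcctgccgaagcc
IFITM3: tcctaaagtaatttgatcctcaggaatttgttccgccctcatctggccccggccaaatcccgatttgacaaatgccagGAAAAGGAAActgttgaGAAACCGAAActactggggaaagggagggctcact
ISRE cores therefore stood before the start of members that fell and of members that rose. In IFITM1 and in IFIT5 a further core crosses the start. In IFIT3 a further one lies upstream of the printed stretch, and the window of its other start, which is not printed, holds 2 more.

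After 6 h of BRD7552, none of the 30 tested members passed the threshold of the limma test (Benjamini-Hochberg adjusted p below 0.05 over all genes tested), where 0.473% of all genes tested did (0.363% higher and 0.11% lower). Only IFITM1 had an unadjusted p below 0.05, where 582 of all 12678 genes tested did. Log2 changes ran from -0.17 for IFIH1, a cytosolic sensor of long double-stranded RNA, to 0.30 for IFITM1, and 24 of 30 members lay within 0.1 of 0. The median was 0.02 over the tested members and -0.00095 over all genes tested. The arrays of both groups overlapped for 27 of the 30 members. The 6 h arrays lay all above the DMSO arrays for IFITM1 and IRF7 and all below them for PARP14, where 6.26% and 5.94% of all genes tested were separated in these directions.

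After 72 h, 13 of the 30 tested members fell and 3 rose, where 18.3% of all genes tested were called lower and 8.33% higher. The members that fell were IFIT1, IFIT2, IFIT3, OASL, OAS3, HERC5, ISG20, RIGI, BST2, IFI6, IFITM2, IFITM3 and MX2, and those that rose were IFITM1, IRF7 and ISG15. The median log2 change was -0.25 over the tested members and -0.06 over all genes tested. Of the 42 measured members, 32 had a negative log2 change at 72 h, but 12 of the 42 gave signals below the level filter. The share of all genes with a negative change was not counted, so this count has no background to be read against. At least 2-fold changes were called for IFIT3, IFIT2 and OASL (lower) and for IFITM1 (higher), where 0.568% of all genes tested were called lower and 0.252% higher by this much. The split depended on the scaling of the arrays, with 11 members lower and 5 higher after quantile or cyclic loess normalization, the 2 added ones being USP18 and IFI35. Of all genes tested, 15.6% were then called lower and 13.1% higher (quantile), or 15.1% and 13.6% (cyclic loess). In bulk RNA, fewer expressing cells and less RNA per cell cannot be told apart.

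**Figure D1:**
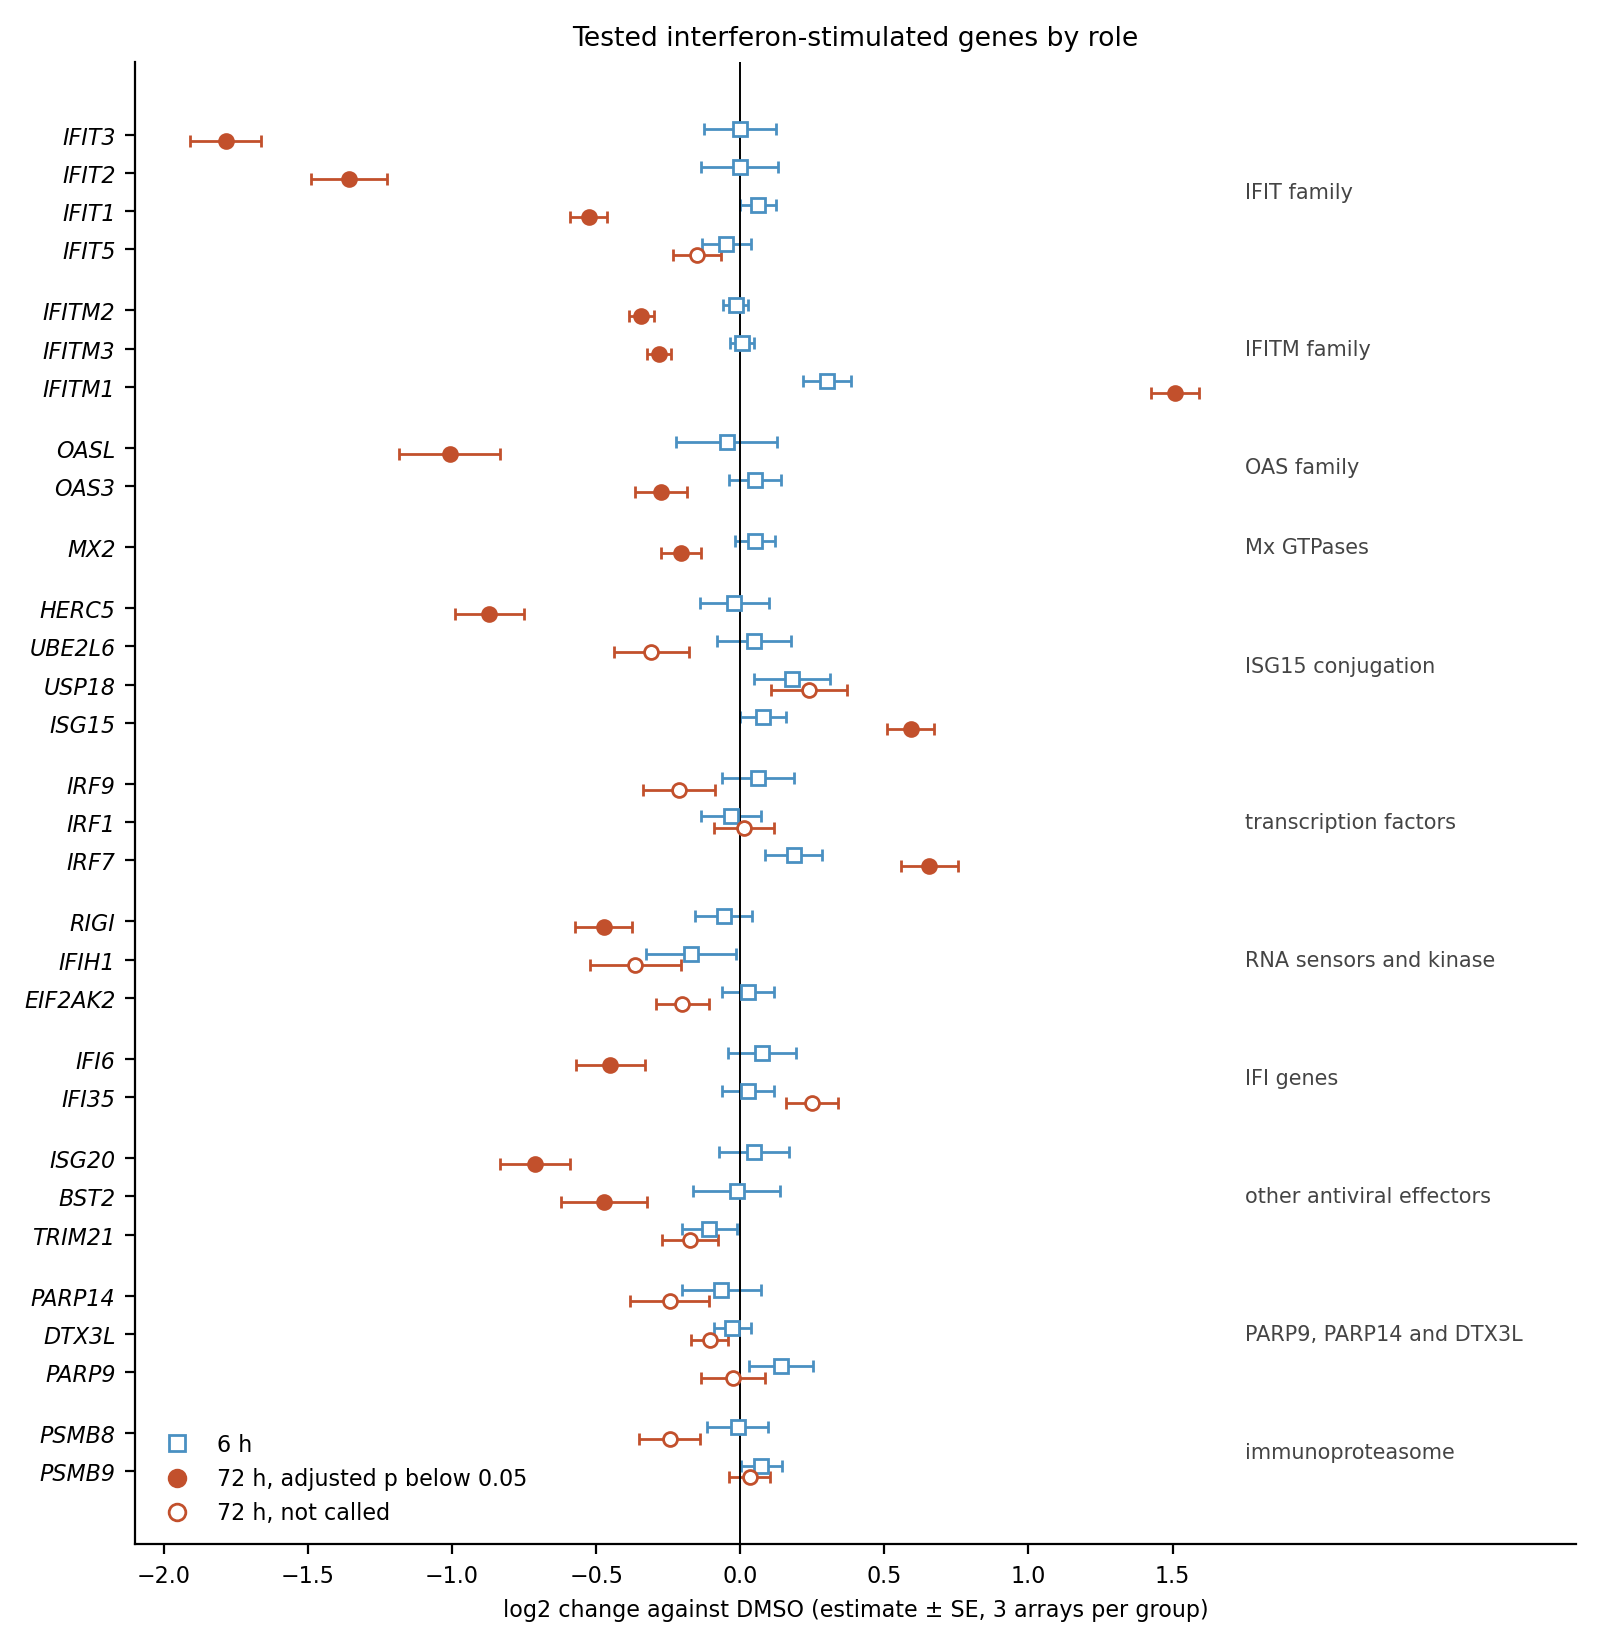
Log2 change against DMSO for the 30 tested members, grouped by role, at 6 h (open squares) and at 72 h (filled circles where the adjusted p was below 0.05, open circles where it was not), with bars of 1 SE from the limma fit on 3 arrays per group. The 6 h values lie between -0.17 and 0.30, and the 72 h values run from -1.78 for IFIT3 to 1.51 for IFITM1.

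The spread between arrays was larger at 72 h than in the other groups. The median SD over the tested members on the log2 scale was 0.186 at 72 h, 0.0769 for DMSO and 0.0629 at 6 h. Replicate 1 at 72 h was the highest of its group for 21 of the 30 tested members, among them 7 of the 13 that fell. The share over all genes was not counted. The upper quartile of this whole array was 117, against 97.5 and 99.7 on replicates 2 and 3, and its part in the count was not tested. Without replicate 1 at 72 h, 19 members fell and 3 rose, where 26% of all genes tested were called lower and 7.31% higher. The added members that fell were DTX3L, EIF2AK2, IFIH1, PARP14, PSMB8 and UBE2L6. Without DMSO replicate 1, 9 members fell and 3 rose, where 13.6% of all genes tested were called lower and 5.82% higher.

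The IFIT proteins bind foreign or unusually capped RNA and block its translation, and their genes lie side by side on chromosome 10. For IFIT3, which binds and steadies IFIT1, the signals were 324, 375 and 315 on the DMSO arrays, 315, 358 and 339 at 6 h, and 122, 93.8 and 81.5 at 72 h. All 72 h arrays were lower than all other arrays, and the 6 h and DMSO arrays overlapped. IFIT3 fell by 1.78 on the log2 scale at 72 h (SE 0.12, 3.45-fold lower, limma adjusted p = 1.03e-07). Its 6 h log2 change was -0.00083.

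IFIT2, a partner of IFIT1 and IFIT3, gave 421, 469 and 407 under DMSO, 351, 478 and 477 at 6 h, and 209, 145 and 157 at 72 h. The 3 arrays at 72 h again lay under all others. The log2 change at 72 h was -1.36 (SE 0.13, 2.56-fold lower, limma adjusted p = 3.27e-06). IFIT1, which recognises RNA with an incomplete cap, had signals of 743, 739 and 749.5 under DMSO, 748, 768 and 814 at 6 h, and 571, 504 and 479 at 72 h. Its late arrays did not overlap with the others, and it fell by 0.53 at 72 h (SE 0.063, 1.44-fold lower, limma adjusted p = 2.35e-05). The intervals of the log2 change at 95% ran from -2.05 to -1.52 for IFIT3, from -1.64 to -1.08 for IFIT2 and from -0.66 to -0.39 for IFIT1.

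IFIT5, the IFIT protein that acts as a single chain, gave 289, 285 and 293 under DMSO, 269, 279 and 292 at 6 h, and 266, 291 and 229 at 72 h with its brighter probe set. The groups overlapped, and the log2 change at 72 h was -0.15 (SE 0.085, limma adjusted p = 0.217), with a ratio between 0.795 and 1.02 at 95%. The other IFIT5 probe set gave 165, 165 and 176 under DMSO, 159, 161 and 161 at 6 h, and 141, 130.1 and 106 at 72 h. Its 3 late arrays lay below the other 6, and its log2 change was -0.44 (SE 0.10, adjusted p = 0.0165 in the limma fit of all probe sets), so the call for IFIT5 rests on the probe set taken.

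**Figure D2:**
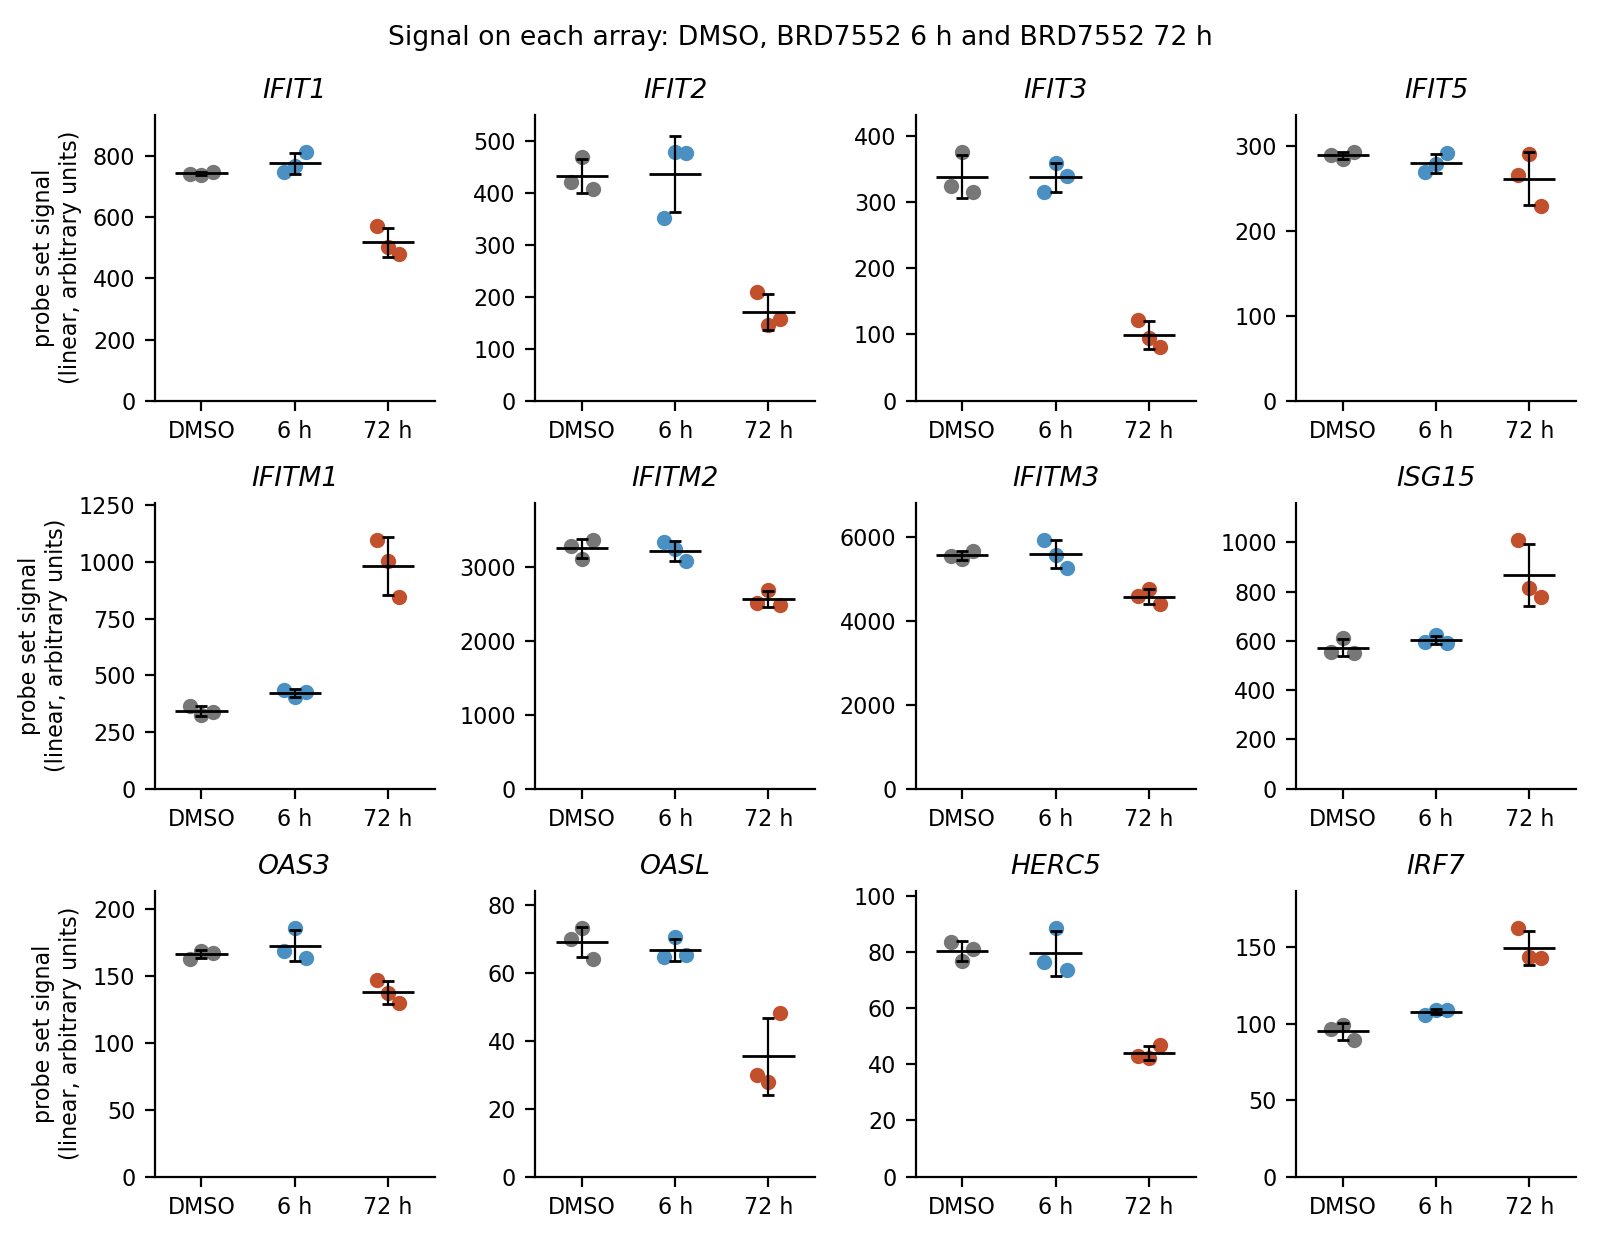
Linear probe set signal on each of the 9 arrays for 12 members, in arbitrary units with axes from 0 that differ between panels, and each point 1 array. Horizontal lines are group means and bars are 1 SD over 3 arrays. At 72 h the IFIT1, IFIT2 and IFIT3 points lie under those of the other groups, the IFITM1, ISG15 and IRF7 points lie above them, and the IFIT5 points overlap.

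The IFITM proteins sit in cell membranes and hinder the fusion of viruses with the cell. IFITM1, found mostly at the cell surface, gave 366, 325 and 338 under DMSO, 437, 403 and 427 at 6 h, and 1097, 1003 and 844 at 72 h. Each group lay wholly above the one before it. The 72 h change was 1.51 on the log2 scale (SE 0.083, 2.85-fold higher, limma adjusted p = 9.83e-09). The 6 h change of 0.30 (SE 0.083) had an adjusted p of 0.280 in the limma fit. With arrays or groups weighted by their spread, a choice made after seeing the data, the adjusted p of the limma fit was 0.0169 and 0.0237. These weights also raised the share of all genes tested called higher at 6 h, from 0.363% to 1.21% and 0.686%.

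IFITM2 and IFITM3, which act mostly in endosomes, moved the other way. The IFITM3 signals were 5540.1, 5477 and 5672 under DMSO, 5934, 5568 and 5274 at 6 h, and 4584, 4753 and 4394 at 72 h. Late arrays were lower than all others, and the log2 change was -0.28 (SE 0.043, 1.22-fold lower, limma adjusted p = 0.0002). IFITM2 gave 3283, 3119 and 3371 under DMSO, 3337, 3253 and 3079 at 6 h, and 2518, 2699 and 2492 at 72 h. It fell by 0.34 (SE 0.044, 1.27-fold lower, limma adjusted p = 4.64e-05), and its late arrays did not overlap with the others. In the gene order of chromosome 11, IFITM1 lies between IFITM2 and IFITM3.

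The IFITM genes are near-identical copies, and the probe sets of IFITM2 and IFITM3 are of the x type, in which some probes also match other sequences. The only IFITM1 probe set is of the s type, which can match more than 1 transcript. A further probe set that the annotation ties to both IFITM2 and IFITM1, and which was therefore not counted for either, gave 328, 369.9 and 444 under DMSO, 444, 431 and 444 at 6 h, and 1041, 878 and 727 at 72 h. Its 72 h arrays were all higher than the others, with a log2 change of 1.21 and an SE of 0.12. The adjusted p was 3.12e-05 in a separate limma fit of the probe sets with 1 or several symbols. The split of the signal among IFITM1, IFITM2 and IFITM3 is therefore uncertain, and the part of shared probes was not tested.

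The OAS enzymes are activated by double-stranded RNA and make the oligoadenylates that switch on RNase L. OASL, a relative without this activity that aids RIG-I signalling, gave 69.9, 73.3 and 64.3 under DMSO, 64.8, 70.6 and 65.3 at 6 h, and 30.1, 27.9 and 48.3 at 72 h. Replicate 3 was the highest of the 72 h arrays but still below all others. The log2 change was -1.01 (SE 0.17, 2.01-fold lower, limma adjusted p = 0.000592). The other OASL probe set gave 71.7, 62.6 and 56.0 under DMSO, 59.4, 65.0 and 65.0 at 6 h, and 17.9, 17.5 and 15.6 at 72 h. With it the log2 change was -1.90 (SE 0.13, adjusted p = 1.70e-06 in the limma fit of all probe sets), so both probe sets were lower and differed in size.

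OAS3, the largest enzyme of the family, gave 163, 169 and 167 under DMSO, 168, 186 and 164 at 6 h, and 147, 137 and 129 at 72 h. The late arrays did not overlap with the others, and it fell by 0.27 (SE 0.090, limma adjusted p = 0.0348). The call ended in 11 of 22 alternatives, among them each of the 3 other scalings and the omission of any 1 DMSO array or of 72 h replicate 2 or 3. OAS1 gave 15.3, 13.0 and 14.6 under DMSO, 14.9, 13.9 and 12.3 at 6 h, and 13.9, 13.4 and 14.2 at 72 h, and OAS2 gave 11.9, 15.8 and 14.8, then 12.7, 12.6 and 10.0, then 11.3, 11.2 and 12.6. Both were below the level filter in groups that overlapped. Their log2 changes at 72 h were -0.04 and -0.27, with adjusted p of 0.898 and 0.312 in the limma fit of all probe sets, and a difference was not detectable at these signals.

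MX1 and MX2 are dynamin-like GTPases that trap viral nucleocapsids. MX2 gave 281, 284 and 297 under DMSO, 311, 287 and 295 at 6 h, and 245, 244 and 258 at 72 h. It fell by 0.20 (SE 0.069, limma adjusted p = 0.0384) with no overlap of late and other arrays, and the call ended in 14 of 22 alternatives, among them each of the 3 other scalings and the omission of any 1 DMSO array, of 6 h replicate 2 or 3, or of 72 h replicate 2. MX1, whose product acts against influenza viruses among others, was below the filter with 17.4, 23.1 and 15.2 under DMSO, 13.4, 15.7 and 16.9 at 6 h, and 13.9, 13.3 and 16.8 at 72 h. Its groups overlapped, and its log2 change was -0.33 (adjusted p = 0.299 in the limma fit of all probe sets).

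Genes of ISG15 conjugation moved in both directions. ISG15 itself, the ubiquitin-like modifier, gave 554, 611 and 551 under DMSO, 597, 624 and 592 at 6 h, and 1010.3, 814 and 778 at 72 h. All late arrays were higher than the others, and ISG15 rose by 0.59 (SE 0.081, 1.51-fold higher, limma adjusted p = 7.85e-05). HERC5, the main ligase that attaches ISG15 in human cells, gave 83.7, 76.8 and 81.1 under DMSO, 76.5, 88.6 and 73.6 at 6 h, and 42.8, 42.4 and 47.0 at 72 h. Its late arrays lay below all others, and it fell by 0.87 (SE 0.12, 1.83-fold lower, limma adjusted p = 7.93e-05).

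UBE2L6, the enzyme that passes ISG15 to the ligase, gave 80.4, 77.5 and 87.2 under DMSO and 79.8, 58.1 and 61.7 at 72 h, with a log2 change of -0.31 (SE 0.13, limma adjusted p = 0.0930). USP18, which removes ISG15 and restrains the receptor, gave 67.8, 76.0 and 67.0 under DMSO and 101, 76.0 and 74.1 at 72 h. Its log2 change of 0.24 (SE 0.13) had a limma adjusted p of 0.205 as deposited, and 0.00871 after quantile normalization. For both genes the groups overlapped at 72 h, with replicate 1 the highest late array. HERC6, a relative of HERC5 and its neighbour on chromosome 4, was below the filter, with a log2 change of 0.29.

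Of the transcription factors, IRF7, which amplifies the production of type I interferon, gave 96.2, 99.4 and 89.0 under DMSO, 106, 109 and 109 at 6 h, and 163, 144 and 143 at 72 h. The groups did not overlap with one another. IRF7 rose by 0.66 at 72 h (SE 0.099, 1.58-fold higher, limma adjusted p = 0.000191), while its 6 h change of 0.19 was not called. IRF9, a DNA-binding part of the complex that acts at the ISRE, had a log2 change of -0.21 (adjusted p = 0.238), and IRF1, induced mainly by interferon gamma, had 0.01 (adjusted p = 0.954), with overlapping arrays for both.

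RIGI, the sensor of short RNA with a triphosphate end, gave 271, 304 and 300.4 under DMSO, 264, 282 and 295 at 6 h, and 249, 193 and 192 at 72 h. Replicate 1 was the highest late array and still under every other array. RIGI fell by 0.47 (SE 0.099, 1.39-fold lower, limma adjusted p = 0.00245). IFIH1 (log2 change -0.36, adjusted p = 0.105) and EIF2AK2, the kinase that halts translation on double-stranded RNA (-0.20, adjusted p = 0.122), were not called, and their groups overlapped.

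Among the IFI genes, IFI6, which encodes an endoplasmic reticulum and mitochondrial protein that limits cell death, gave 205, 189 and 190.2 under DMSO, 203, 183 and 232 at 6 h, and 172, 132 and 127 at 72 h. The late arrays lay below the others, and IFI6 fell by 0.45 (SE 0.12, 1.37-fold lower, limma adjusted p = 0.0109). Its call ended without DMSO replicate 1 and without 72 h replicate 3. IFI35, whose product pairs with NMI, gave 193, 193 and 174 under DMSO and 247, 212 and 208 at 72 h, with a log2 change of 0.25 (SE 0.089) and an adjusted p of 0.0504. Its late arrays were all higher than the DMSO arrays, and without 72 h replicate 3 the adjusted p was 0.0379. IFI16, IFI27, IFI44 and IFI44L were below the filter, with 72 h changes from -0.32 for IFI44 to 0.10 for IFI16.

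ISG20, an exonuclease that degrades single-stranded RNA, gave 139, 152 and 156 under DMSO, 150.0, 160.0 and 152 at 6 h, and 106, 74.4 and 95.0 at 72 h. Late arrays did not overlap with the others, and ISG20 fell by 0.71 (SE 0.12, 1.64-fold lower, limma adjusted p = 0.000534). BST2, or tetherin, which holds budding viruses at the cell surface, gave 26.6, 27.8 and 30.6 under DMSO, 25.6, 32.1 and 26.7 at 6 h, and 20.8, 17.9 and 22.8 at 72 h. It fell by 0.47 (SE 0.15, limma adjusted p = 0.0298), with its late arrays below all others and a signal close to the filter. The BST2 call ended in 6 of 21 alternatives, among them the omission of any 1 DMSO array or of 72 h replicate 2.

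TRIM21, a cytosolic antibody receptor, had a log2 change of -0.17 (adjusted p = 0.210), although its 72 h arrays were all lower than the DMSO arrays. RSAD2 (viperin), XAF1, SAMD9 and SAMD9L were below the filter. Their 72 h changes lay between -0.17 for SAMD9 and -0.05 for XAF1, and none was called.

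None of the tested members of the PARP9 group and the immunoproteasome was called at 72 h. PARP14, an ADP-ribosyltransferase, gave 113, 112 and 111 under DMSO, 104, 108 and 108 at 6 h, and 117, 95.6 and 74.7 at 72 h, and its log2 change was -0.25 (SE 0.14, adjusted p = 0.210). The late arrays ranged from above to below the DMSO arrays. PSMB8, a catalytic subunit that replaces its constitutive counterpart in the immunoproteasome, gave 387, 390.4 and 381 under DMSO, 383, 388 and 380.2 at 6 h, and 398, 327 and 265 at 72 h, with a log2 change of -0.24 (SE 0.10, adjusted p = 0.102). As with PARP14, replicate 1 at 72 h was higher than every DMSO array and the other late arrays lower. PARP9 (-0.03), its partner ligase DTX3L (-0.11) and PSMB9 (0.03) differed less from DMSO, and their arrays overlapped.

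The 14 tested members without a call at 72 h had log2 changes from -0.36 to 0.25, 10 of them negative. The share of negative changes among all uncalled genes was not counted. The 3 largest uncalled changes in the negative direction were those of IFIH1, UBE2L6 and PARP14, and in the positive direction those of IFI35, USP18 and PSMB9. The late arrays lay all below the DMSO arrays for 14 tested members and all above them for 4, where 24.9% and 12% of all genes tested were separated in these directions. Members under the filter had signals from 6.36 to 23.1 on single arrays and 72 h changes from -0.33 to 0.29, with a lowest adjusted p of 0.226. With no filter, 12 members fell and 3 rose, where 10.2% and 4.76% of 19775 genes were called lower and higher. The members just inside the filter of 17.8 were BST2, OASL and HERC5, with geometric mean signals of 25.3, 54.1 and 65.5, and those just outside were SAMD9, MX1 and XAF1, with 17.8, 15.9 and 15.6.

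Among the 70 probe sets of the 42 members, 16 were called lower and 3 higher at 72 h, where 7.24% and 2.71% of 41091 probe sets were, and none at 6 h, where 0.0073% and 0.0779% were called lower and higher. Beside the brightest probe set, 9 members had 11 other probe sets above the filter, of which 7 had the same sign at 72 h and 4 the opposite one. The other probe sets were called lower for IFIT2 (-0.99, adjusted p = 0.00308), IFIT3 (-1.64, adjusted p = 0.000282) and ISG20 (-0.93, adjusted p = 0.000549), for OASL and IFIT5 as given with those genes, and for 1 of the 2 of RIGI (-0.34, adjusted p = 0.0301). The opposite signs belonged to EIF2AK2 (0.06 and 0.03), IRF1 (-0.25) and PARP9 (0.29), none of which was called with any probe set.

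**Figure D3:**
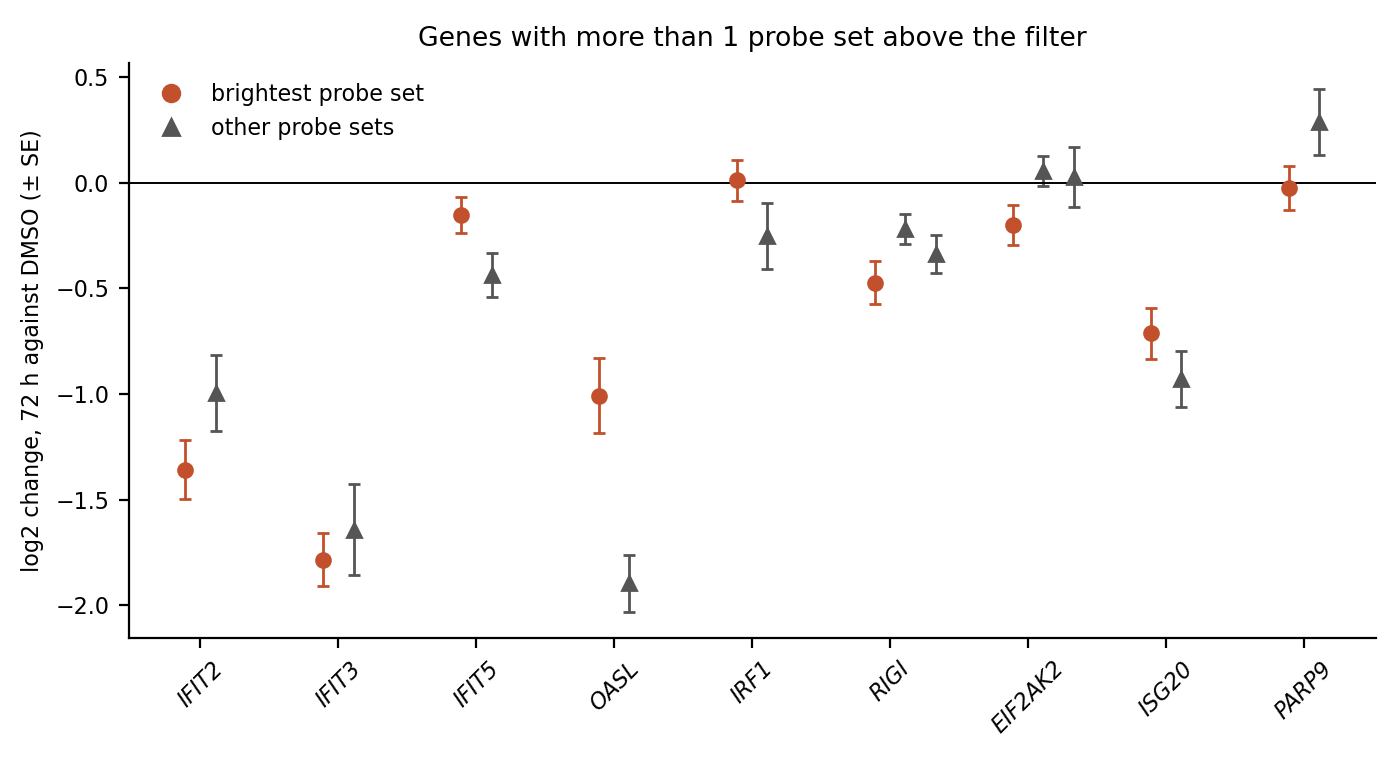
Log2 change at 72 h against DMSO, with 1 SE, for the 9 members that have more than 1 probe set above the filter, with circles for the brightest probe set and triangles for the others. IFIT2, IFIT3, OASL, ISG20 and RIGI are negative with each probe set, and OASL runs from -1.01 to -1.90.

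Between 6 h and 72 h of exposure, which shares its late arrays with the comparison against DMSO, 13 members fell and 3 rose, where 16.7% and 7.28% of all genes tested were called lower and higher. The log2 changes against 6 h were -1.78 for IFIT3 (SE 0.12, limma adjusted p = 1.67e-07), -1.36 for IFIT2 (SE 0.13, adjusted p = 4.81e-06) and -0.59 for IFIT1 (SE 0.063, adjusted p = 1.20e-05). For OASL and HERC5 they were -0.96 and -0.85. IFITM1 rose further by 1.21 (SE 0.083, 2.31-fold higher, limma adjusted p = 1.56e-07), ISG15 by 0.51 (adjusted p = 0.000373) and IRF7 by 0.47 (adjusted p = 0.00312). Both exposures were set against the same DMSO arrays, so these tests stand for the difference between the exposure groups. Time in culture cannot be told apart from exposure in them.

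The other genes of the pathway were taken from lists with 97 genes, of which 88 had a probe set and 67 were tested. None was called at 6 h, where 0.473% of all genes tested were. An unadjusted p below 0.05 was found for 3 of the 67, and for 582 of all 12678 genes tested. At 72 h, 18 fell (26.9%) and 7 rose (10.4%), where 18.3% and 8.33% of all genes tested did, and their median log2 change was -0.12. The 9 interferon genes measured, among them IFNB1 and IFNG, were all below the filter, with signals of 5.17 to 16.6, so the ligands themselves could not be followed at these signals.

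Of 9 receptor subunits and Janus kinases, 2 fell (22.2%), near the 18.3% of all genes tested that were called lower. Both are kinases bound to the type I receptor, with TYK2 at -0.35 (SE 0.10, limma adjusted p = 0.0172) and JAK1 at -0.24 (SE 0.049, limma adjusted p = 0.00226). The TYK2 call ended under each of the 3 other scalings and without DMSO replicate 3, and the JAK1 call when arrays were centred on their medians. Of 5 STAT and IRF factors outside the list of members, STAT3 rose by 0.24 (SE 0.056, limma adjusted p = 0.0045) and the other 4 were not called. With so few genes, this 20% called higher is little to set against the 8.33% of all genes tested.

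Feedback inhibitors went both ways, with 12.5% called lower and 37.5% higher, where 18.3% and 8.33% of all genes tested were. SOCS1, which blocks Janus kinases, gave 47.8, 45.6 and 46.2 under DMSO and 31.9, 26.2 and 24.3 at 72 h, with no overlap, and fell by 0.77 (SE 0.13, limma adjusted p = 0.000654). PIAS1 rose by 0.28 (adjusted p = 0.0194), SOCS3 by 0.25 (adjusted p = 0.0263) and SOCS2 by 0.20 (adjusted p = 0.0199), and the remaining 4 of 8 were not called. The SOCS1, SOCS2 and SOCS3 calls ended when the mean of the probe sets of each gene was used. The calls of PIAS1, SOCS2 and SOCS3 also ended without DMSO replicate 1, without 72 h replicate 1, with no mean-variance trend and with group weights.

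In the sensing list, STING1, the adaptor of DNA sensing, fell by 0.57 (SE 0.17, limma adjusted p = 0.0208) at a signal close to the filter, and CGAS, which makes its ligand, fell by 0.29 (limma adjusted p = 0.0413) with overlapping arrays. The other 5 tested genes of that list were not called, so 28.6% of 7 fell, where 18.3% of all genes tested were called lower. The CGAS call ended in 15 of 21 alternatives. Among them were the omission of any 1 DMSO array and of replicate 2 or 3 at 6 h or at 72 h. The STING1 call ended with the mean of its probe sets, without DMSO replicate 1 or 3 and without 72 h replicate 2.

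Of 12 tested antigen presentation genes, 4 fell (33.3%) and none rose, where 18.3% and 8.33% of all genes tested were called lower and higher. Those that fell were HLA-E (-0.46, SE 0.047, limma adjusted p = 5.04e-06), the immunoproteasome subunit PSMB10 (-0.35, adjusted p = 0.00399), the peptide transporter TAP2 (-0.23, adjusted p = 0.00686) and HLA-B (-0.20, adjusted p = 0.00901). HLA probe sets of the x type share probes with other HLA genes, so the division among those genes is uncertain. The HLA-B call ended without DMSO replicate 3, with no mean-variance trend and when arrays were centred on their medians. That of TAP2 ended under the same centring and with the mean of its probe sets.

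Of 26 tested other interferon-induced genes, 9 fell (34.6%) and 3 rose (11.5%), where 18.3% and 8.33% of all genes tested were called lower and higher. TRIM14, an adaptor of RNA and DNA sensing, fell by 0.85 (SE 0.13, 1.80-fold lower, limma adjusted p = 0.000276), with 259.7, 277 and 252 under DMSO and 193, 138 and 117 at 72 h. LAMP3, a lysosomal membrane protein, rose by 0.84 (SE 0.10, 1.79-fold higher, limma adjusted p = 2.99e-05), with 62.0, 68.2 and 67.1 under DMSO and 123, 117 and 113 at 72 h. With the mean of its probe sets the TRIM14 change was -0.44. TYMP, or thymidine phosphorylase, fell by 0.62 (adjusted p = 0.00322) with its brightest probe set, and its change was -0.04 (adjusted p = 0.863) with a probe set lacking the s and x suffixes. GBP3, a guanylate-binding protein, fell by 0.58 (adjusted p = 0.0189) with overlapping arrays. The GBP3 call ended with no mean-variance trend, without DMSO replicate 1 or 2 and without 72 h replicate 2 or 3. For TRIM14 and LAMP3 the late arrays were separated from the DMSO arrays.

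**Figure D4:**
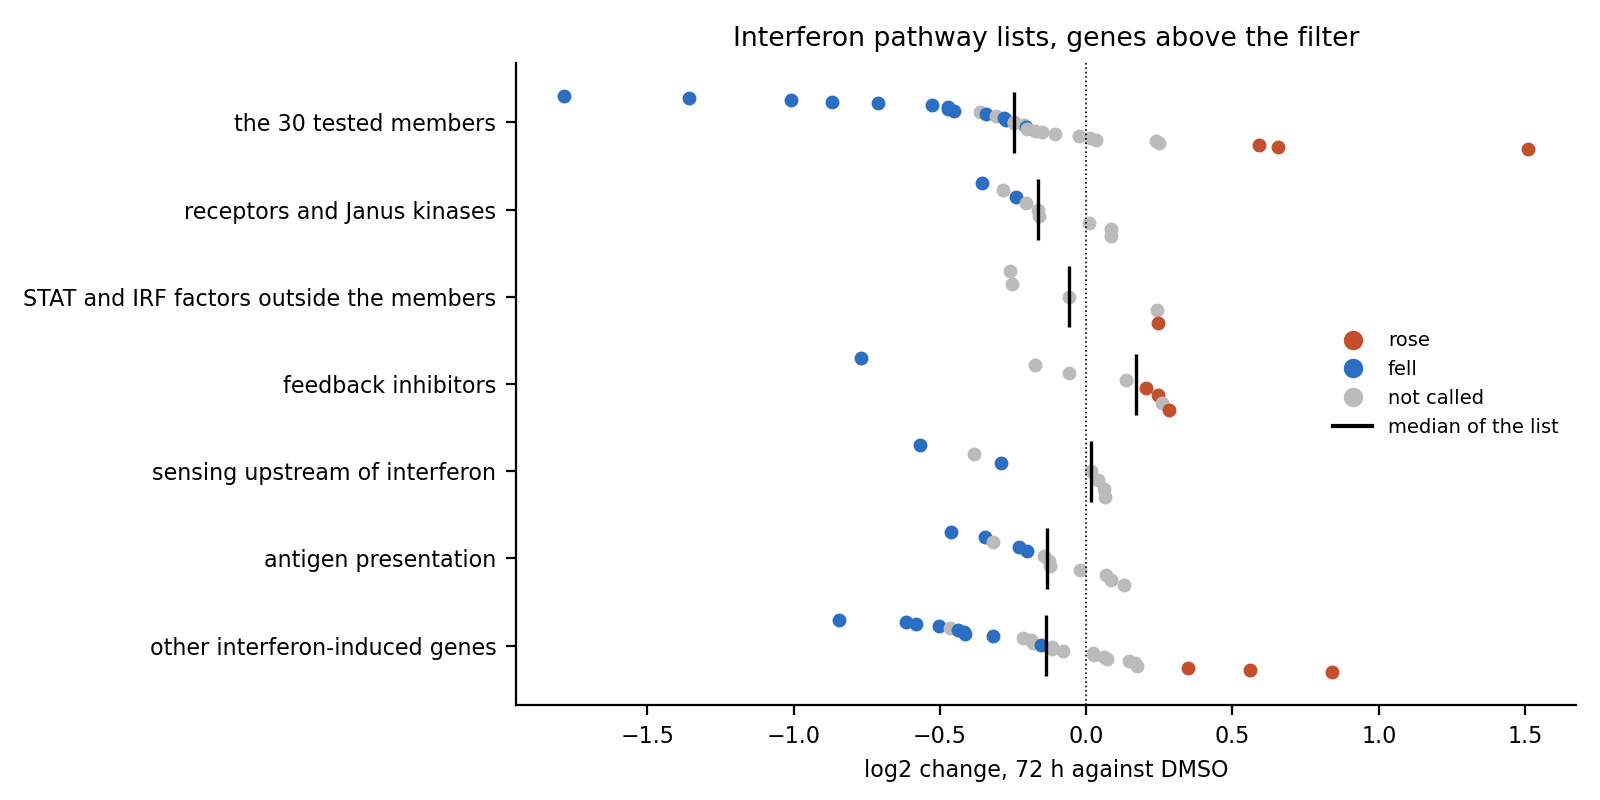
Log2 change at 72 h against DMSO of each gene above the filter, for the 30 members and for 6 lists of other pathway genes, coloured by whether the gene rose, fell or was not called, with the list median as a vertical line. The medians run from -0.25 for the members to 0.17 for the feedback inhibitors.

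Under other scalings of the arrays the median of all genes tested at 72 h was 0.0016 (quantile), 0.0086 (cyclic loess) and -0.02 (arrays centred on their medians), against -0.06 as deposited. IFIT1, IFIT2, IFIT3, OASL, HERC5, ISG20, RIGI, IFITM1, IFITM2, IFITM3, IRF7 and ISG15 were called in the same direction under every alternative in which they were tested. The lowest and highest OASL changes among the alternatives were -1.90 and -0.75.

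**Figure D5:**
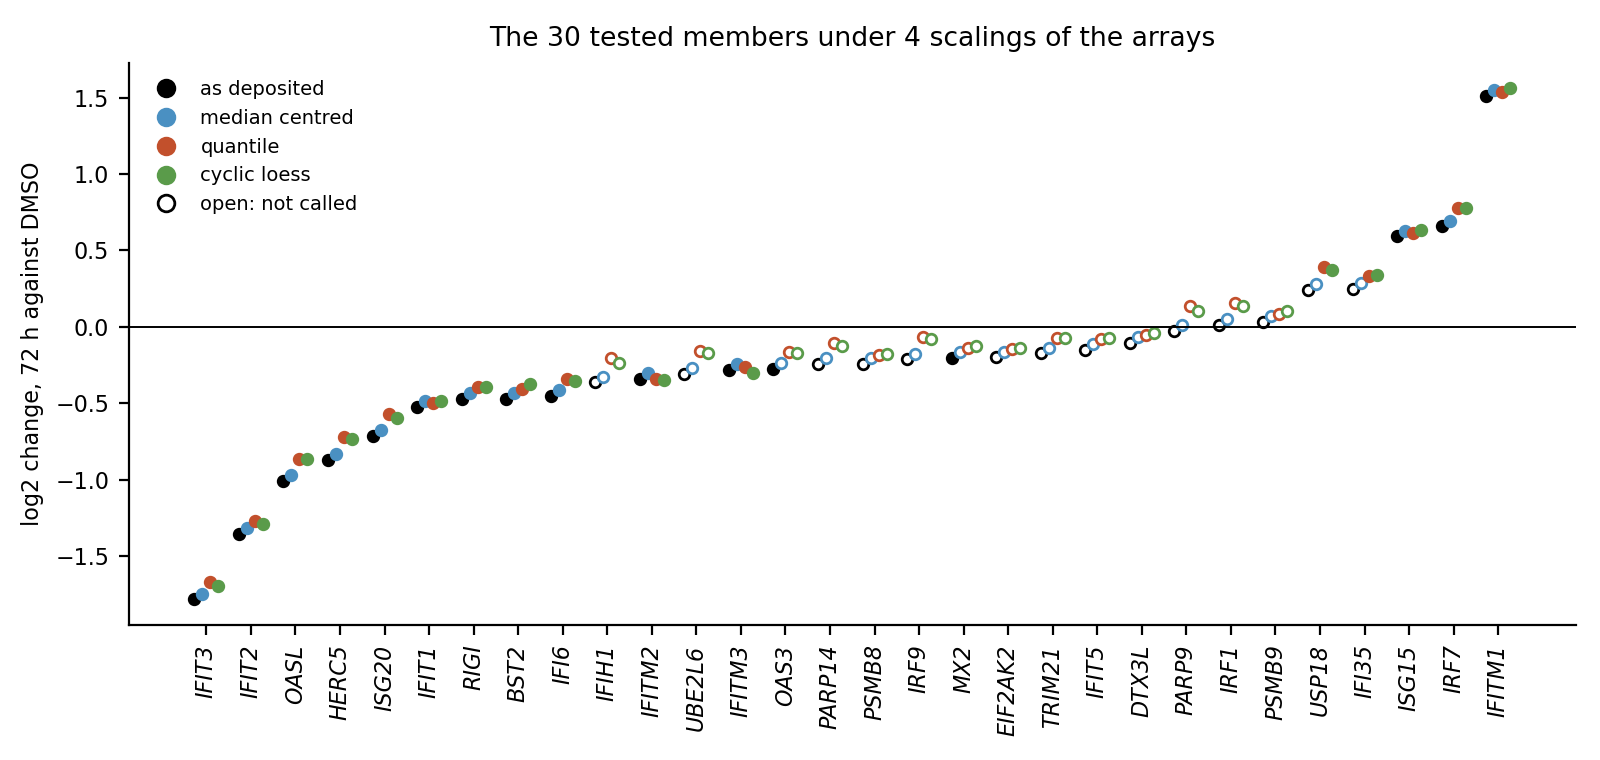
Log2 change at 72 h against DMSO of the 30 tested members with the values as deposited, centred on array medians, quantile normalized and cyclic loess normalized, ordered by the first, with open points where the gene was not called. IFIT3, IFIT2 and OASL stay lowest and IFITM1 highest under the 4 scalings, while IFI35 and USP18 are called only after quantile or cyclic loess normalization, MX2 and OAS3 only as deposited, and PARP9 is negative as deposited and positive under the other 3.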

How the data were processed

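The authors deposited 1 table of linear probe set intensity values for 9 arrays and 54675 probe sets, with MAS5 named in the submitters' processing notes. Its scaling between arrays is not given in the sources used here. The same value stood on 2 or more arrays for 59.2% of probe sets (USP18 has 1 value on 3 arrays), and the part of this in the SDs, SEs and p-values was not tested. Gene names came from the platform annotation and were checked against RefSeq records, which changed no symbol. Of the probe sets, 41097 had 1 symbol, 1801 several and 11777 none. Values were taken to log2 with no pseudocount. Each of 19775 genes was represented by its brightest probe set (mean over all arrays), and the 12678 genes at or above the median probe set (log2 of 4.15, or 17.8 in linear units) were tested with limma 3.58.1 in R 4.3.3 (lmFit, eBayes with a mean-variance trend, all 9 arrays, Benjamini-Hochberg adjustment). A change was called at an adjusted p below 0.05. Further probe sets and members under the filter came from a fit of 41091 probe sets with 1 symbol, called the fit of all probe sets above. The probe set shared by IFITM2 and IFITM1 came from a fit that also held those with several symbols. The number of arrays, 3 per group, limits the precision.

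The members and lists were chosen with earlier results of these data known. Values per array were given for members with a called log2 change of at least 1 at 72 h, for every IFIT, IFITM and OAS member and for the largest change in each other role group. Values were also given per array for some further members, chosen after their values were seen. Up to 4 called genes per pathway list were named by size of change. Arrays of different groups were correlated in their deviations from the group means. Of 9 same-numbered pairs, 4 correlated over 0.1, with a range from -0.26 to 0.20. Pairs with different numbers ranged from -0.32 to 0.36. With 3 arrays per group these values cannot decide whether replicate numbers pair the arrays, and the main fit used no pairing. The alternatives were other scalings, filters, a pseudocount of 16, probe set rules, no trend, only the groups compared, a replicate block, each array left out and, added after seeing the data, array and group weights. The fit was tested on simulated data.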

Additional observations from a re-analysis of the deposited data

Results flagged for a closer look

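For 16 members the signal differed between 6 h and 72 h of BRD7552, by the limma test of the 72 h arrays against the 6 h arrays (adjusted p below 0.05). This test called 24% of all genes tested. Time in culture and exposure cannot be told apart in it. IFIT3, IFIT2 and IFIT1 were lower at 72 h than at 6 h by log2 changes of -1.78, -1.36 and -0.59. The lower members of the OAS and Mx families were OASL (-0.96), OAS3 (-0.33) and MX2 (-0.26). HERC5 (-0.85), ISG20 (-0.76), IFI6 (-0.53), BST2 (-0.46) and RIGI (-0.42) were lower as well. IFITM2 (-0.33) and IFITM3 (-0.29) were lower, while IFITM1 was higher by 1.21. ISG15 (0.51) and IRF7 (0.47) were the other members that were higher at 72 h. The 72 h arrays also had the larger spread given in the report, and replicates 2 and 3 at 72 h the lower upper quartiles, and the part of these in the differences was not tested.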

How the results depend on the processing

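The count of members that rose at 72 h against DMSO went from 3 to 5 after quantile normalization and to 5 after cyclic loess normalization. Of all genes tested, 13.1% and 13.6% were then called higher, against 8.33% in the main fit. The count that rose at 6 h went from 0 to 1 with array weights and to 1 with group weights. Of all genes tested, 1.21% and 0.686% were then called higher at 6 h, against 0.363% in the main fit. Leaving out 1 array gave 9 to 19 members that fell and 3 to 4 that rose at 72 h against DMSO, 11 to 17 that fell and 3 that rose against 6 h, and 0 at 6 h. Under the same omissions 12.4% to 26% of all genes tested were called lower and 5.66% to 8.77% higher at 72 h against DMSO, and 11.3% to 25.2% and 5.26% to 7.21% against 6 h. Over the other alternatives, 10 to 14 members fell at 72 h against DMSO and 10 to 16 against 6 h. In these, 9.99% to 24.7% of all genes tested were called lower against DMSO and 9.09% to 23.1% against 6 h. With the replicate block, 11 members fell and 3 rose at 72 h against DMSO, since OAS3 and MX2 lost their calls. Of all genes tested, 17.2% were then called lower and 7.97% higher. Against 6 h, 13 members fell and 3 rose with the block, where 15.5% and 6.91% of all genes tested were called lower and higher. Of 349 values of called members at 72 h against DMSO, 316 kept their call and 33 lost it, and none changed sign. In the comparison of 72 h with 6 h, the pathway gene B2M went from 0.13 to -0.026 with the mean of the probe sets of a gene and to -0.22 with probe sets lacking the s and x suffixes, and SOCS3 went from 0.30 to -0.035 with that mean; the change of probe set is the construction of these alternatives. Precision is limited by 3 arrays per group, by low signals for 12 members, and by an unknown scaling of the deposited values. The DMSO exposure time is unknown, so time in culture and exposure cannot be told apart at 72 h.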
